A study of Mus musculus with 22 samples.

Results

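The genes described here are 10 components of bone morphogenetic protein (BMP) signalling: the ligands Bmp2, Bmp4, Bmp5 and Bmp7, the secreted antagonists Nog and Chrd, and the target genes Bambi, Id1, Id2 and Id3. They were taken by gene symbol from the deposited tables, and each of the 10 symbols matched a single row among 55141 gene identifiers. The study, titled as one on stem-cell-based embryo models without Hox function, sequenced poly(A) RNA of mouse embryonic stem (mES) cells, and of 3 kinds of culture grown from them. The genotypes are wild type, labelled wt, and Hox-/-. Wild-type and Hox-/- mES cells (n = 2 each) received no treatment beyond their medium, which held LIF at 100 ng/ml, CHIR99021 (an inhibitor of GSK-3) at 3 µM and PD0325901 (an inhibitor of MEK) at 1 µM. The labels give this medium for the mES cells of both genotypes. Adherent endoderm differentiation cultures of both genotypes (n = 3 each) were given 100 ng/ml Activin A with 3 µM CHIR99021 and were collected at 120 h. Gastruloids are stem cell aggregates that form germ layers and an axis. Activin A gastruloids were made from both genotypes and sequenced at 96 h and 120 h (n = 2 each), and Chiron gastruloids from wild type at the same times (n = 2 each). Gastruloid doses are absent from the labels, which call the cells mixed. They name no clone, so genotype and cell line cannot be told apart, and they do not say whether replicates were separate cultures, so p-values measure the spread between these libraries, which may be technical.

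BMPs are secreted dimers of the TGF-beta superfamily. They bind type I and type II serine/threonine kinase receptors, which phosphorylate Smad1, Smad5 and Smad9. These Smads join Smad4, enter the nucleus and switch on direct targets, of which the Id genes are the standard readout. Noggin (Nog) and chordin (Chrd) bind the ligands outside the cell and keep them from their receptors. Both are made by the node, the notochord and the tissue around them. Bambi is a receptor-like protein with no kinase domain and dampens the signal that induces it. Id proteins are helix-loop-helix factors that cannot bind DNA and hold bHLH factors inactive. In the gastrulating mouse, BMP from extraembryonic and posterior tissue opposes the Activin-like ligand Nodal and favours mesoderm over anterior endoderm.

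The RefSeq promoter table (build GRCm38.p6) held 5 of the 10 genes: Bmp4, Bmp5, Chrd, Id2 and Id3. Sequence upstream of the start is shown for Chrd, the gene with the largest genotype differences in gastruloids, and for Bmp4, the ligand that differed in the other direction at 96 h. Each is written 5′ to 3′ on the gene's own strand. Capitals mark 2 motifs that phosphorylated Smad1 and Smad5 are known to bind, which are GGCGCC and also GGAGCC, the latter read on the opposite strand as the letters GGCTCC. The marked matches do not overlap.
Chrd, chr16:20732877-20733126, plus strand: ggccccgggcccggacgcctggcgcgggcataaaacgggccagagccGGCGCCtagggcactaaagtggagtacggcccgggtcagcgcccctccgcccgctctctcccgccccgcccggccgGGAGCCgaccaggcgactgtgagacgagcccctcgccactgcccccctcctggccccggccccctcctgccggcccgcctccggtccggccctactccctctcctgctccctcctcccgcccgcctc
Bmp4, chr14:46390670-46390919, minus strand: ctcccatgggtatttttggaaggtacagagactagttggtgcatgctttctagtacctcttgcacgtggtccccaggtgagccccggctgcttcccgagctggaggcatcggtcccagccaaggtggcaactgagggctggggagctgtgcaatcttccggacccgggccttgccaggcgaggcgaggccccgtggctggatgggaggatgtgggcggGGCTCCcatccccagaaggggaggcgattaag

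In the 250 bases before the start, GGCGCC had 1 match in Chrd and none in Bmp4 or Bmp5, and it occurred in 9.59% of all 32851 promoters of the table. GGAGCC or its complement had 1 match each in Bmp4 and Chrd, and occurred in 26.0% of all promoters. The Smad4 motif CAGAC, which the opposite strand shows as the letters GTCTG, had 1 match in Bmp5 and none in these windows of Bmp4 and Chrd. It occurred in 42.2% of all promoters. The table's starts of Id2 and Id3 lie inside the genes as the deposited tables bound them, so their windows are not described. These are matches of letters and show neither binding nor its absence.

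Library totals ran from 9.11 to 28.8 M counts, with 9.11 to 11.9 M in the 120 h gastruloids. The sum over 39 Hox genes, a check of the genotype labels, was lower in each Hox-/- library than in each wild-type library of the same culture, with group means of 0.896 to 103 CPM in Hox-/- and 33.1 to 1179 CPM in the matching wild-type groups. CPM is a gene's count per 1 M counts of its library. The labelled cultures were set against marker lists. A list of 6 pluripotency genes summed to 4391 to 4622 CPM in the mES libraries. A list of 6 definitive endoderm genes (Sox17, Foxa2, Gata6, Cxcr4, Foxa1 and Gata4) summed to 205 to 216 CPM in wild-type endoderm cultures and to 81.7 to 87.8 CPM in Hox-/- endoderm cultures. Both ranges lie above those of the mES libraries (2.18 to 3.58 CPM). The Hox-/- sums lie below those of Chiron gastruloids at 96 h (107 to 115 CPM). The sums of both genotypes lie below those of wild-type Activin A gastruloids (263 to 309 CPM). The list thus does not set endoderm cultures of either genotype apart from gastruloids.

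Across the 10 groups the BMP genes fell into different patterns. Bmp4, Bmp2, Nog and Bambi had their highest means in endoderm cultures, whereas Bmp7, Chrd, Id1, Id2 and Id3 had theirs in wild-type Activin A gastruloids at 120 h, and Bmp5 in Chiron gastruloids at 120 h. All 10 genes had their lowest mean in mES cells: Bmp2 was at 0 counts in both Hox-/- libraries, Bmp5 at 1 count in 1 of 4 libraries, and Nog likewise. Levels in different culture types are set side by side without a test, except between endoderm cultures and mES cells, where a joint fit of the counts was made.

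**Figure D1:**
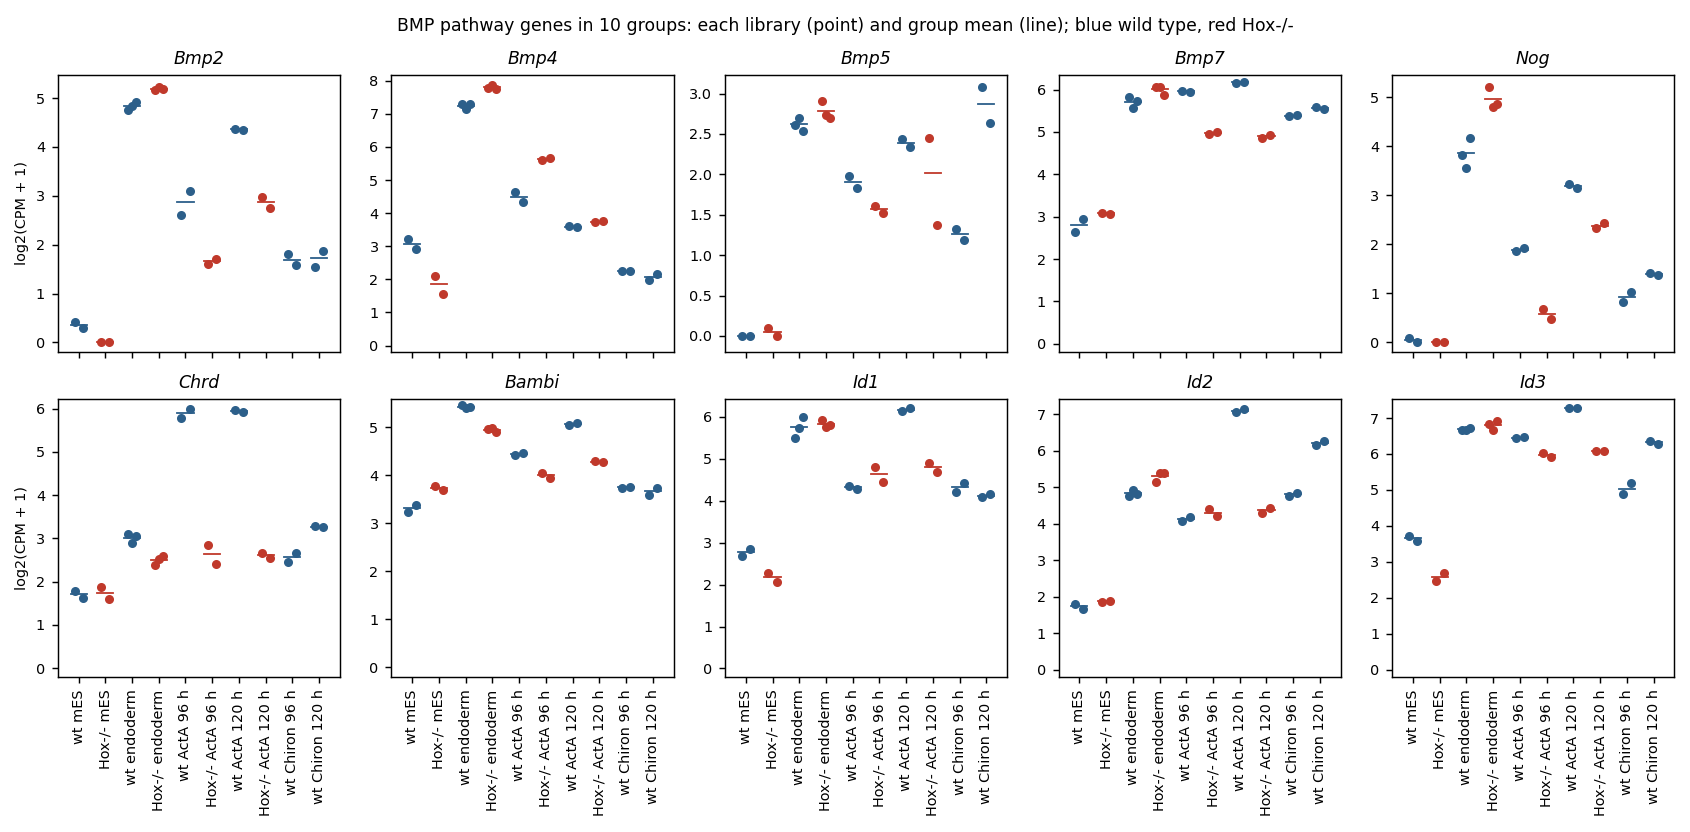
Each panel plots 1 gene as log2(CPM + 1) on its own y axis, by group on the x axis. Points are libraries, lines are group means, blue is wild type and red is Hox-/-. Chrd lies between 54.5 and 62.9 CPM in the 4 wild-type Activin A libraries and under 9 CPM in every other library, and Bmp4 is highest in endoderm cultures.

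Genotype comparisons asked how loss of Hox function goes with BMP gene levels. Each count below stands beside the share of all tested genes that passed the same test (edgeR, adjusted p under 0.05). In mES cells 4 of 7 tested genes passed, 1 higher and 3 lower in Hox-/-, against 23.2% of all genes (12.4% higher, 10.8% lower). In endoderm cultures 7 of 10 passed, 5 higher and 2 lower, against 46.2% (23.1% higher, 23.1% lower). In Activin A gastruloids at 96 h 9 of 10 passed, 3 higher and 6 lower, against 38.9% (22.2% higher, 16.7% lower). At 120 h 8 of 10 passed, all 8 lower, against 50.4% of all genes called in either direction (24.9% higher, 25.5% lower). The median log2 change of the 10 genes at 120 h was -1.14, beside -0.02 over all genes tested. At 96 h it was -0.42 beside 0.03, and in endoderm cultures 0.26 beside 0. With library totals alone as scaling, which shifts the median of all genes at 120 h to -0.13, 34.6% and not 49.4% of the calls over all genes at 120 h were higher, and 42.5% and not 57% at 96 h. The 8 lower calls at 120 h and 6 lower calls at 96 h were also made under that scaling. No gene moved in the same direction in all 4 comparisons. Chrd and Id3 were lower in 3 and higher in none.

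**Figure D2:**
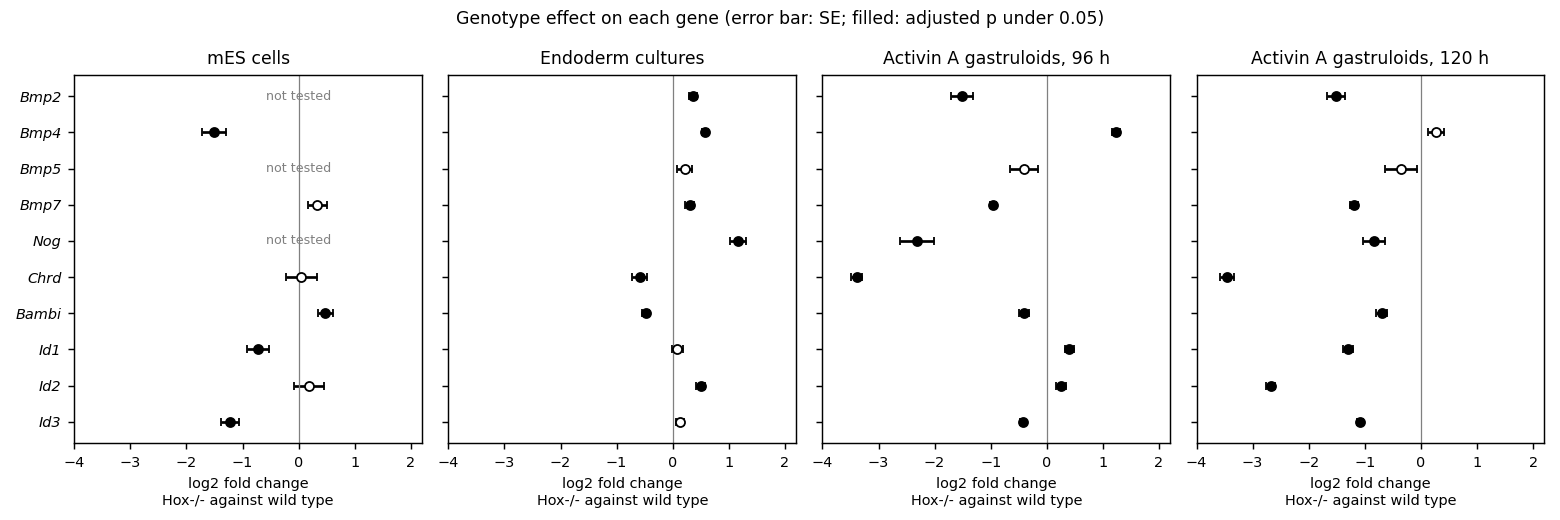
Log2 fold change of Hox-/- against wild type on the x axis for each gene on the y axis, in 4 cultures. Bars are standard errors, filled points passed the test and open points did not. At 120 h every filled point lies left of 0, while in endoderm cultures 5 filled points lie right of it.

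Bmp4 (ENSMUSG00000021835, mm10 chromosome 14, 46383520 to 46390669) is the ligand that specifies posterior mesoderm in the embryo. In Activin A gastruloids at 96 h it stood at 23.9 and 19.4 CPM in wild type and at 47.8 and 49.6 CPM in Hox-/-. Both Hox-/- libraries were above both wild-type libraries, and Bmp4 was the ligand that rose there, with a log2 change of 1.23 (SE 0.0708, adjusted p 3.02e-20). In bulk RNA a change in the number of cells that express a gene and a change in RNA per cell cannot be told apart, here and in every result that follows. At 120 h the values were 11.2 and 10.9 CPM in wild type and 12.3 and 12.4 CPM in Hox-/-. These groups did not overlap, but the log2 difference of 0.27 (SE 0.143, adjusted p 0.108) did not pass. Bmp4 fell between 96 h and 120 h in both genotypes, by 1.04 on the log2 scale in wild type and by 1.99 in Hox-/-. The difference between these falls was -0.95 (SE 0.163, adjusted p 4.16e-06).

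Endoderm cultures held the highest Bmp4 of the series. The wild-type libraries were at 156, 141 and 157 CPM and the Hox-/- libraries at 221, 233 and 213 CPM. All 3 Hox-/- libraries were above all 3 wild-type ones, and the log2 change was 0.57 (SE 0.0549, adjusted p 1.39e-06). The marker lists also moved with genotype in these cultures: all 6 pluripotency genes were lower in Hox-/- (sums of 598 to 678 CPM in wild type and 211 to 224 CPM in Hox-/-), as were all 6 definitive endoderm genes. Their part in the Bmp4 result and in the other endoderm results was not tested. In mES cells the direction was opposite: wild-type libraries held 8.23 and 6.61 CPM and Hox-/- libraries 3.29 and 1.93 CPM, a log2 change of -1.5 (SE 0.214, adjusted p 1.62e-06). The genotype difference changed between the culture types by 2.09 (SE 0.216, adjusted p 6.77e-07). With limma on the FPKM values the mES difference no longer passed (adjusted p 0.0843 and 0.0944 with pseudocounts of 1 and 0.1).

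Bmp2 (ENSMUSG00000027358, chromosome 2, 133552159 to 133562885) encodes the ligand closest in sequence to BMP4. Its level in Activin A gastruloids was lower in Hox-/- at both times. Wild type held 5.11 and 7.52 CPM at 96 h, against 2.06 and 2.27 CPM in Hox-/-. At 120 h wild type held 19.7 and 19.3 CPM, against 6.9 and 5.7 CPM. The genotypes did not overlap at either time, and the log2 change was -1.51 at both (SE 0.191 and 0.16, adjusted p 5.18e-09 and 1.93e-11). Bmp2 rose with time by 1.54 on the log2 scale in each genotype. In endoderm cultures the order was the reverse, with 26.0, 27.5 and 29.5 CPM in wild type and 34.8, 36.3 and 35.3 CPM in Hox-/- (log2 change 0.36, SE 0.0696, adjusted p 0.000687). In mES cells Bmp2 had 5 and 3 counts in the wild-type libraries and none in the Hox-/- libraries, and it was too low to be tested between genotypes.

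Bmp7 (ENSMUSG00000008999, chromosome 2, 172868012 to 172940321) encodes a ligand that can pair with BMP2 or BMP4. Its highest and lowest means among the 8 differentiated groups were 2.46-fold apart, the narrowest range of the 10 genes. Wild-type Activin A gastruloids held 61.1 and 61.0 CPM at 96 h and 70.4 and 71.5 CPM at 120 h. Hox-/- gastruloids held 29.8 and 31.0 CPM and then 28.1 and 29.6 CPM. All 4 Hox-/- values lay below all 4 wild-type values, with log2 changes of -0.96 (SE 0.0572, adjusted p 1.1e-19) at 96 h and -1.19 (SE 0.0715, adjusted p 9.85e-20) at 120 h. In endoderm cultures Bmp7 was higher in Hox-/-: 56.0, 46.7 and 52.3 CPM in wild type and 66.3, 66.1 and 57.4 CPM in Hox-/-, a log2 change of 0.3 (SE 0.0748, adjusted p 0.00416). In mES cells 5.24 and 6.68 CPM in wild type and 7.47 and 7.39 CPM in Hox-/- differed by 0.33 and did not pass (adjusted p 0.163).

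Bmp5 (ENSMUSG00000032179, chromosome 9, 75775364 to 75900310), a ligand of the BMP7 subgroup, did not exceed 7.46 CPM in any library and passed in none of the 3 genotype comparisons that could be tested. Endoderm cultures held 5.11, 5.47 and 4.82 CPM in wild type and 6.53, 5.66 and 5.48 CPM in Hox-/-, and the log2 difference of 0.21 did not pass (adjusted p 0.242). Activin A gastruloids at 96 h held 2.93 and 2.56 CPM in wild type and 2.06 and 1.87 CPM in Hox-/- (log2 difference -0.41, adjusted p 0.2). Neither pair of groups overlapped. At 120 h the wild-type Activin A libraries held 4.43 and 4.06 CPM, and the Hox-/- libraries 4.48 and 1.59 CPM. The Hox-/- replicates differed from each other by more than the genotypes did. Without Hox-/- replicate 1 the log2 difference was -1.3 and passed (adjusted p 0.00368), and without replicate 2 it was 0.19 (adjusted p 0.612). An antisense gene, Gm26903, shares 1878 bases of exon with Bmp5 and was at 0 CPM in all 10 groups.

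Ligands can be compared with each other only per length, in FPKM (fragments scaled by gene length and library size). The 4 ligands together held 102.5 ± 6.17 FPKM (SD, n = 3) in wild-type and 145.8 ± 6.12 FPKM (n = 3) in Hox-/- endoderm cultures, and Bmp4 made up 78.7% and 81.5% of these sums. In Activin A gastruloids at 96 h the sums were close, 27.2 ± 1.29 FPKM in wild type and 30.5 ± 0.594 FPKM in Hox-/- (n = 2 each), but the ligands were not in the same proportions. Bmp7 led in wild type with 52% of the sum, ahead of Bmp4 with 39.1%. Bmp4 led in Hox-/- with 73.5%, ahead of Bmp7 with 23.0%. At 120 h the sum was 26.2 ± 0.404 FPKM in wild type and 15.3 ± 0.471 FPKM in Hox-/-, where Bmp7 (43.1%) and Bmp4 (41.1%) were near each other. These shares are descriptions without a test.

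**Figure D3:**
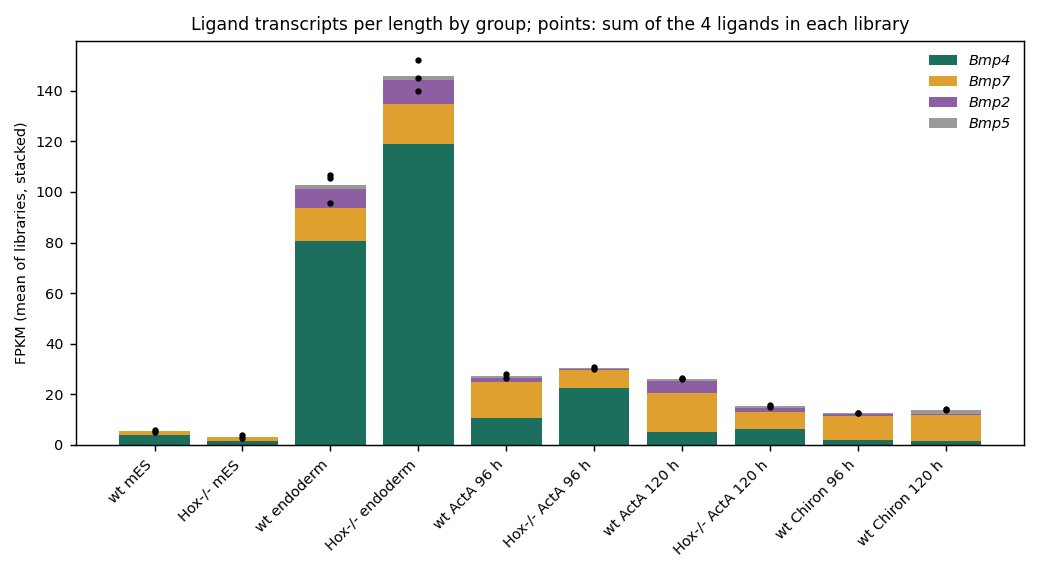
Stacked mean FPKM of the 4 ligands on the y axis, by group on the x axis. Black points give the sum in each library. At 96 h the sums of wild-type and Hox-/- Activin A gastruloids are close while the Bmp4 layer is 10.6 FPKM in wild type and 22.4 FPKM in Hox-/-.

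Chrd (ENSMUSG00000006958, chromosome 16, 20733127 to 20742384), whose promoter is printed above, gave the largest genotype difference of the 10 genes in gastruloids. At 96 h the wild-type Activin A libraries held 54.5 and 62.9 CPM, and the Hox-/- libraries 6.22 and 4.28 CPM. At 120 h wild type held 61.8 and 59.7 CPM, and Hox-/- 5.34 and 4.86 CPM. Chrd was thus 10.5-fold lower at 96 h (log2 change -3.39, SE 0.0963, adjusted p 4.62e-33) and 11-fold lower at 120 h (log2 change -3.46, SE 0.124, adjusted p 6.62e-29). Neither genotype changed detectably with time. The log2 differences were -0.03 in wild type (adjusted p 0.717) and -0.1 in Hox-/- (adjusted p 0.647). Chiron gastruloids of wild type held 4.48 and 5.38 CPM at 96 h and 8.72 and 8.59 CPM at 120 h.

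In endoderm cultures, where Chrd was low, it was also lower in Hox-/-. Wild type held 7.54, 6.46 and 7.29 CPM and Hox-/- 4.26, 4.74 and 5.04 CPM, with no overlap (log2 change -0.59, SE 0.137, adjusted p 0.00287). With limma on the FPKM values this difference missed the threshold (adjusted p 0.052 and 0.0542). In mES cells the 4 libraries lay between 2.02 and 2.69 CPM and the genotypes overlapped. The gene Thpo lies on the other strand and shares 239 exonic bases with the 6258 of Chrd, and no source used here states whether the counting used strand. Thpo means in Activin A gastruloids at 96 h were 8.65 (wild type) and 1.74 CPM (Hox-/-). At 120 h they were 13.1 and 0.981 CPM, so in these gastruloids Thpo moved with Chrd at a lower level. For endoderm cultures the Thpo means were 2.68 (wild type) and 1.04 CPM (Hox-/-), beside 7.1 and 4.68 CPM for Chrd. Thpo means of mES cells, 4.66 (wild type) and 4.92 CPM (Hox-/-), lay above those of Chrd, 2.28 and 2.35 CPM. The part of Thpo in the Chrd counts was not tested in any culture.

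Nog (ENSMUSG00000048616, chromosome 11, 89300638 to 89302332) encodes the other antagonist, in a single exon. In Activin A gastruloids at 96 h it stood at 2.62 and 2.79 CPM in wild type and at 0.608 and 0.401 CPM in Hox-/-, where it had 13 and 6 counts. At 120 h it stood at 8.43 and 7.91 CPM in wild type and at 4.05 and 4.4 CPM in Hox-/-. Both Hox-/- libraries were below both wild-type libraries at each time, by -2.31 at 96 h (SE 0.304, adjusted p 1.52e-08) and by -0.84 at 120 h (SE 0.202, adjusted p 0.000419) on the log2 scale. Nog rose with time in both genotypes, by 1.51 in wild type and by 2.98 in Hox-/-, and these rises differed by 1.46 (SE 0.386, adjusted p 0.00191). With limma on log2(FPKM + 1), a scale that compresses low values, that difference was 0.28 and did not pass (adjusted p 0.109).

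Nog and Chrd went opposite ways in endoderm cultures. Nog was at 13.1, 10.8 and 17.0 CPM in wild type and at 36.0, 26.9 and 28.0 CPM in Hox-/-. Every Hox-/- library was above every wild-type one, and Nog was 2.24-fold higher (log2 change 1.17, SE 0.144, adjusted p 1.5e-05), while Chrd was lower. Summed per length, Nog and Chrd held 9.83 ± 1.93 FPKM in wild-type and 19.0 ± 2.43 FPKM in Hox-/- endoderm cultures (n = 3 each). In Activin A gastruloids they held 18.4 ± 1.77 and 1.6 ± 0.347 FPKM at 96 h, and 19.0 ± 2.39 and 3.63 ± 0.254 FPKM at 120 h (n = 2 each). At 96 h these sums stood beside 10.6 and 22.4 FPKM of Bmp4. The 4 ligands together held 27.2 and 30.5 FPKM, more than Nog and Chrd together in both genotypes. Other antagonists, such as Cer1 and Fst described below, are not in these sums, so they do not compare all ligands with all antagonists.

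Markers of the cells that make Chrd and Nog in the embryo moved with the genotype. Of 5 node and notochord genes (T, Noto, Shh, Foxj1 and Foxa2), 4 were lower and T was higher in Hox-/- than in wild-type Activin A gastruloids at 96 h, and all 5 were lower at 120 h. Noto, a notochord transcription factor, was at 17.0 and 19.7 CPM in wild type and at 1.08 and 0.468 CPM in Hox-/- at 96 h, and at 120 h it was at 15.5 and 13.5 CPM against 0 counts in both Hox-/- libraries. Foxa2 was at 75.8 and 85.9 CPM against 9.63 and 9.56 CPM at 96 h, and Shh was at 1 count in each Hox-/- library of 96 h. The 5-gene sum is mostly T: it ran from 1830 to 1887 CPM in wild type and from 2127 to 2159 CPM in Hox-/- at 96 h, and from 395 to 404 CPM and 164 to 172 CPM at 120 h. The 6 definitive endoderm genes were all lower at 96 h (263 to 295 CPM in wild type, 26.6 to 29.6 CPM in Hox-/-), and 4 of 6 were lower at 120 h (300.4 to 309 against 143 to 148 CPM). The part of these cell types in the Chrd and Nog results was not tested.

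Bambi (ENSMUSG00000024232, chromosome 18, 3507923 to 3516404) encodes the decoy receptor. Hox-/- Activin A gastruloids held less of it at both times: 20.4 and 20.9 CPM against 15.6 and 14.2 CPM at 96 h, and 32.1 and 32.7 CPM against 18.5 and 18.3 CPM at 120 h. Neither pair of groups overlapped, and the log2 changes were -0.41 (SE 0.0837, adjusted p 9.54e-05) and -0.7 (SE 0.0968, adjusted p 2.34e-08). In endoderm cultures it was also lower, with 43.2, 41.3 and 41.5 CPM in wild type and 30.05, 30.5 and 28.98 CPM in Hox-/- (log2 change -0.48, SE 0.0616, adjusted p 2.01e-05). In mES cells it was higher in Hox-/-, 12.6 and 11.8 CPM against 8.43 and 9.33 CPM (log2 change 0.47, SE 0.134, adjusted p 0.00964). Without wild-type replicate 1 that difference was 0.39 and did not pass (adjusted p 0.151), nor did it with DESeq2 (adjusted p 0.182). Among the 17 tested genes within 5 Mb of Bambi, 58.8% were higher in Hox-/- mES cells and none was lower, with a median log2 change of 0.21 beside 0 over all genes. The part of this neighbourhood in the mES result was not tested.

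The Id genes gave the clearest readings by time. Id2 (ENSMUSG00000020644, chromosome 12, 25093799 to 25097140) was at 15.8 and 17.0 CPM in wild-type Activin A gastruloids at 96 h and at 131 and 139 CPM at 120 h. In Hox-/- gastruloids it was at 19.96 and 17.4 CPM and then at 18.5 and 20.7 CPM. The wild-type libraries at 120 h stood far above the other 6, which lay between 15.8 and 20.7 CPM. Id2 rose 7.81-fold with time in wild type (log2 change 2.97, SE 0.0645, adjusted p 1.01e-38) and by 0.03 on the log2 scale in Hox-/-, which did not pass (adjusted p 0.76). The time effects differed by -2.93 (SE 0.115, adjusted p 1.05e-26). At 120 h Id2 was 6.4-fold lower in Hox-/- (log2 change -2.68, SE 0.0737, adjusted p 8.19e-34).

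Id1 (ENSMUSG00000042745, chromosome 2, 152736251 to 152737410) and Id3 (ENSMUSG00000007872, chromosome 4, 136143497 to 136145392) showed the same order at 120 h. Wild-type Activin A gastruloids held 19.5 and 18.4 CPM of Id1 at 96 h and 69.3 and 73.2 CPM at 120 h, while Hox-/- held 26.8 and 20.7 CPM and then 28.6 and 24.9 CPM. For Id3 wild type held 85.8 and 87.6 CPM and then 155 and 154 CPM, while Hox-/- held 64.4 and 59.2 CPM and then 67.2 CPM in both libraries. With time Id1 rose by 1.84 and Id3 by 0.75 in wild type on the log2 scale. In Hox-/- the differences were 0.13 (adjusted p 0.195) and 0.1 (adjusted p 0.115) and did not pass. Leaving out Hox-/- replicate 1 of 96 h let both pass, at 0.35 (adjusted p 0.00283) and 0.16 (adjusted p 0.0304). The time effects differed between genotypes by -1.7 for Id1 (SE 0.121, adjusted p 1.21e-16) and by -0.66 for Id3 (SE 0.0732, adjusted p 2.4e-10).

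At 120 h the genotypes did not overlap for Id1 (log2 change -1.3, SE 0.0853, adjusted p 2.46e-18) or Id3 (log2 change -1.09, SE 0.0541, adjusted p 5.29e-23). At 96 h the Id genes were not alike: Id3 was lower in Hox-/- (log2 change -0.43, SE 0.0485, adjusted p 2.75e-10), and Id1 and Id2 were higher by 0.4 and 0.25 (adjusted p 0.000121 and 0.0128). Without Hox-/- replicate 1 neither higher call passed, at log2 changes of 0.18 (adjusted p 0.181) and 0.14 (adjusted p 0.361). Both also missed the threshold with limma on FPKM. The Id2 call was further lost with total counts (0.2, adjusted p 0.0514), no filter (0.2, adjusted p 0.0747) and DESeq2 (0.25, adjusted p 0.0811). It was lost too in a fit of only the 2 groups compared (0.21, adjusted p 0.0644). Without wild-type replicate 1 the Id2 log2 change was 0.2. Per length the 3 Id genes summed to 103 ± 0.441 FPKM in wild type and 89.3 ± 9.08 FPKM in Hox-/- at 96 h, and to 290 ± 3.93 and 98.9 ± 1.12 FPKM at 120 h (n = 2 each). In wild type the share of Id2 in this sum was 12.6% at 96 h and 34.5% at 120 h. In Hox-/- it was 16.3% and 15.3%.

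In endoderm cultures 1 of the 3 Id genes passed. Id2 was higher in Hox-/-, at 34.3, 41.1 and 40.4 CPM against 26.0, 29.1 and 26.9 CPM in wild type (log2 change 0.5, SE 0.0815, adjusted p 0.000181). Id1 stood at 44.5, 52.2 and 62.7 CPM in wild type and at 59.4, 52.8 and 55.0 CPM in Hox-/-. Id3 stood at 99.8, 101 and 105 CPM in wild type and at 112, 99.8 and 120 CPM in Hox-/-. Both overlapped between genotypes and did not pass, with log2 differences of 0.08 (adjusted p 0.556) and 0.13 (adjusted p 0.122). In mES cells Id3 was lower in Hox-/-, at 4.48 and 5.46 CPM against 12.2 and 10.9 CPM (log2 change -1.23, SE 0.158, adjusted p 1.94e-07). Id1 was lower too, at 3.81 and 3.19 CPM against 5.45 and 6.22 CPM (log2 change -0.72, SE 0.2, adjusted p 0.00707), though not with DESeq2 (adjusted p 0.148) or without wild-type replicate 2 (log2 change -0.64, adjusted p 0.0834). Id2 was near 2 CPM in both genotypes and did not pass (adjusted p 0.667).

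**Figure D4:**
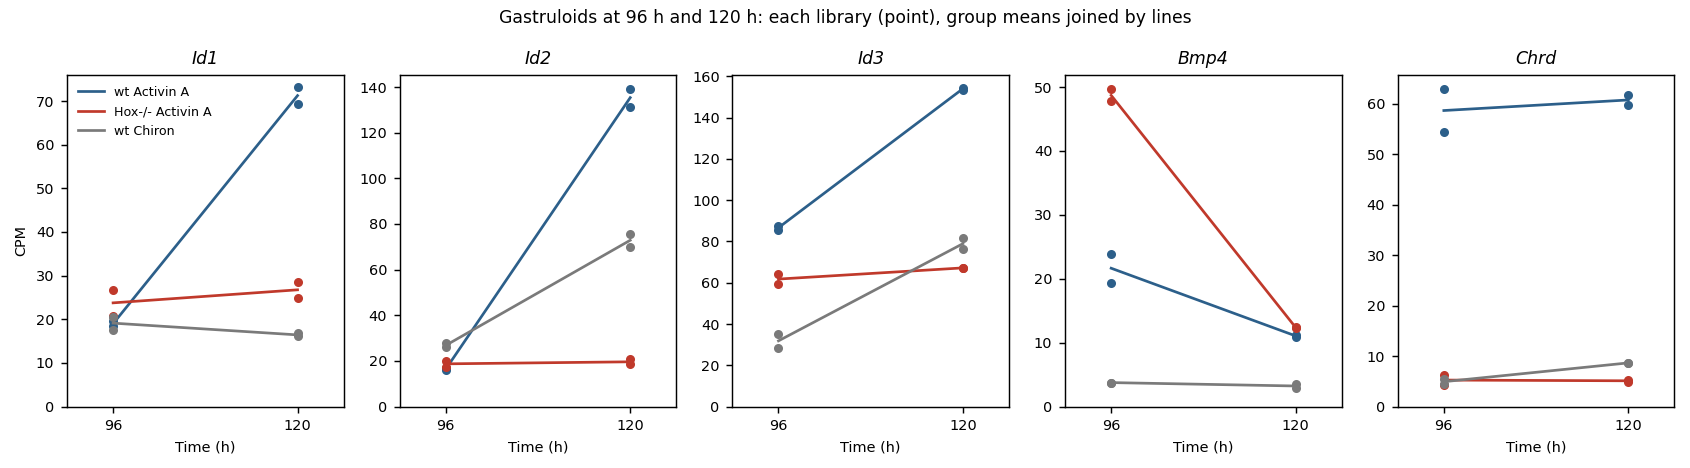
CPM on the y axis against time in hours on the x axis for 3 Id genes, Bmp4 and Chrd in gastruloids. Points are libraries and lines join group means. The wild-type Activin A lines of Id1, Id2 and Id3 climb while the Hox-/- lines stay level, and the Chrd lines stay apart at both times.

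Marker lists also moved at 120 h, when the Id genes were lower in Hox-/-. All 4 somitic mesoderm genes (Tbx6, Meox1, Tcf15 and Msgn1) were higher in Hox-/-, with sums of 351 to 358 CPM in wild type and 533 to 543 CPM in Hox-/-. Of 6 extraembryonic and lateral mesoderm genes, a source of BMP4 in the embryo, 3 were higher and 2 lower at 120 h, with sums of 48.5 to 54.4 and 81.4 to 82.6 CPM. At 96 h that list summed to 5.93 to 7.11 CPM in wild type and 6.35 to 6.64 CPM in Hox-/-, with Hand2 at or under 3 counts in each library. In endoderm cultures its sums overlapped as well, at 29.9 to 40.8 and 36.8 to 39.2 CPM. Of 4 roof plate and dorsal neural tube genes, 1 was higher and 3 lower at 120 h. The part of these lists in the Bmp4 and Id results was not tested.

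Time and treatment comparisons use the same wild-type Activin A libraries as the genotype comparisons, so their values are given side by side and are not independent. Over time 9 of 10 genes passed in wild-type Activin A gastruloids, 8 higher and 1 lower, beside 74.9% of all genes (37.2% higher, 37.8% lower). In Hox-/- Activin A gastruloids 4 passed, 3 higher and 1 lower, beside 72.4% (34.9% higher, 37.6% lower). In Chiron gastruloids 5 passed, 4 higher and 1 lower, beside 61.7% (28.5% higher, 33.2% lower). In wild type the calls on Bmp5 (log2 change 0.56, adjusted p 0.0439) and Bmp7 (0.14, adjusted p 0.0221) were lost with no filter, DESeq2 and limma and in several fits without a library, so that 7 to 8 genes passed whenever a library was left out. Bmp5 lost its call without replicate 2 of 96 h (0.45) or replicate 1 or 2 of 120 h (0.49 and 0.63), and Bmp7 without any 1 of the 4 libraries (0.13 to 0.15). The sums of the pluripotency list were 1544 to 1554 CPM at 96 h and 92.0 to 92.1 CPM at 120 h in wild type, and 1132 to 1141 CPM and 31.7 to 34.7 CPM in Hox-/-. Of its 6 genes 1 was higher and 4 lower at 120 h in wild type, and none was higher and 5 were lower in Hox-/-. The part of these genes in the time results was not tested. Counted in either direction, the share of BMP genes that changed with time in Activin A gastruloids was near the background in wild type and below it in Hox-/-. Higher calls alone were 8 of 10 in wild type beside 37.2% of all genes, and 3 of 10 in Hox-/- beside 34.9%. The median log2 change of the 10 genes was 0.67 in wild type, beside 0 over all genes, and 0.12 in Hox-/-, beside -0.01. Bambi rose by 0.58 in wild type and by 0.28 in Hox-/-, and the latter did not pass with DESeq2 (adjusted p 0.0692). The direct test of genotype by time passed for 6 of 10 genes, 1 higher and 5 lower, beside 38.9% of all genes (18.7% higher, 20.2% lower).

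The treatment comparison set Activin A gastruloids against Chiron gastruloids of wild type. At 96 h 9 of 10 genes passed, 8 higher and 1 lower in Activin A, against 61.6% of all genes (31.3% higher, 30.2% lower). At 120 h 10 of 10 passed, 9 higher and 1 lower, against 41.9% of all genes (20.3% higher, 21.6% lower). Marker lists moved with treatment too. At 96 h all 5 node and notochord genes were higher in Activin A (1830 to 1887 against 509 to 559 CPM). Of 6 definitive endoderm genes 5 were higher and 1 lower (263 to 295 against 107 to 115 CPM), and all 4 somitic genes were lower (119.5 to 129 against 541 to 612 CPM). The pluripotency sums were 1544 to 1554 against 183 to 241 CPM, but of the 6 genes 3 were higher and 3 lower in Activin A. At 120 h all 5 node and all 6 endoderm genes were higher and all 4 somitic and 6 pluripotency genes lower, with Noto and Shh at or under 3 counts in Chiron gastruloids. Of 6 extraembryonic and lateral mesoderm genes, 3 were higher and 2 lower in Activin A at 96 h. At 120 h 5 were higher and none lower (48.5 to 54.4 against 3.69 to 5.09 CPM). Of 4 roof plate and dorsal neural tube genes, 2 were higher and 1 lower at each time. Their sums at 120 h were 50.8 to 53.25 against 83.9 to 86.9 CPM. Hand1, Tbx20, Lmx1a and Wnt1 were at or under 3 counts in Chiron gastruloids at 120 h. The part of these lists in the treatment results was not tested. Chrd led at 96 h (log2 change 3.49, SE 0.098, adjusted p 2.12e-19) with the library values given above. At 120 h it was higher by 2.76, after it had risen by 0.69 in Chiron gastruloids. Bmp4 was at 3.75 CPM in both Chiron libraries at 96 h and at 2.93 and 3.5 CPM at 120 h. All 4 values lay below the Activin A values, by 2.46 and 1.74 on the log2 scale. Bmp2 was at 2.48 and 1.98 CPM and then at 1.93 and 2.65 CPM in Chiron gastruloids, with no change over time that passed (adjusted p 0.849), and was lower than in Activin A gastruloids by 1.47 at 96 h and 3.06 at 120 h.

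Nog was at 0.779 and 1.04 CPM at 96 h and 1.68 and 1.59 CPM at 120 h in Chiron gastruloids. It was higher in Activin A gastruloids by 1.48 and 2.26 on the log2 scale. Per length it was scarcer than Chrd in Chiron gastruloids, with 0.534 against 1.29 FPKM at 96 h and 0.879 against 2.04 FPKM at 120 h. Bmp7 was at 40.2 and 41.4 CPM at 96 h and at 47.0 and 45.7 CPM at 120 h in Chiron gastruloids, below each Activin A library. It differed by 0.52 and 0.56 between treatments. In Chiron gastruloids it made up 77.8% and 72.3% of the summed FPKM of Bmp2, Bmp4, Bmp5 and Bmp7 at 96 h and 120 h. Other ligand genes, such as Bmp3 described below, are not in that sum. Bmp5 went both ways: it was higher in Activin A at 96 h by 0.92 and lower at 120 h by 0.65 (SE 0.229, adjusted p 0.0257). The call at 120 h was lost with DESeq2 (adjusted p 0.126), with limma, and without Chiron replicate 1 (-0.33, adjusted p 0.408) or either Activin A replicate (-0.71 and -0.59). In Chiron gastruloids it rose from 1.51 and 1.28 CPM to 7.46 and 5.2 CPM (log2 change 2.11). The lower call was lost with DESeq2 (adjusted p 0.126), with limma (0.0704 and 0.123) and in 3 fits that left out a library, with log2 changes of -0.33 without Chiron replicate 1 of 120 h and -0.71 and -0.59 without Activin A replicate 1 or 2 of 120 h. Bambi was at 12.2 and 12.6 CPM and then at 11.1 and 12.3 CPM in Chiron gastruloids, below Activin A at both times.

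The 3 Id genes had different orders between treatments. Id1 was at 17.6 and 20.6 CPM in Chiron gastruloids at 96 h, overlapped with Activin A, and was at 16.1 and 16.8 CPM at 120 h, 4.19-fold below Activin A (log2 difference 2.07, adjusted p 1.57e-14). Id2 was at 25.9 and 27.7 CPM and then at 69.9 and 75.8 CPM in Chiron gastruloids. It was lower in Activin A at 96 h (log2 change -0.77, adjusted p 8.29e-09) and higher at 120 h (0.85, adjusted p 3.12e-10). Id3 was at 28.4 and 35.2 CPM and then at 81.6 and 76.2 CPM in Chiron gastruloids, below Activin A by 1.37 and 0.91. Id2 and Id3 thus rose with time in Chiron gastruloids, by 1.33 and 1.19, while Id1 was lower by 0.34 (adjusted p 0.00635). That call was lost with total counts (-0.23, adjusted p 0.0541), without Chiron replicate 1 of 120 h (-0.33, adjusted p 0.0537) and without Chiron replicate 2 of 96 h (-0.18, adjusted p 0.177). The direct test of treatment by time passed for 8 of 10 genes, 4 higher and 4 lower, beside 39.6% of all genes (21.7% higher, 18.0% lower). It was 2.15 for Id1, 1.62 for Id2 and -0.46 for Id3.

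Differentiation from mES cells to endoderm cultures raised all 10 genes in both genotypes, beside 79.9% of all genes called in wild type (41.6% higher, 38.3% lower) and 80.6% in Hox-/- (42.7% higher, 37.9% lower). Culture type and medium differ together here. The mES and endoderm libraries may also come from different sequencing runs, which the labels do not give. Bmp4 was 18.6-fold higher in wild-type endoderm cultures and 79.1-fold higher in Hox-/- ones, and Id3 8.1-fold and 21.1-fold. Chrd had the smallest rise, 2.84-fold in wild type and 1.86-fold in Hox-/-. Folds against mES groups at or under 3 counts per library are bounds: Bmp5 was at least 22-fold higher in wild type, Bmp2 at least 141-fold and Nog at least 120-fold higher in Hox-/-. Where a single count was present, the ratio of pooled counts was 379 for Nog in wild type (95% counting interval 67.7 to 15000) and 149 for Bmp5 in Hox-/- (26.6 to 5920). The genotype by differentiation test passed for 5 of 10 genes, 4 higher and 1 lower, beside 24.1% of all genes (11.6% higher, 12.5% lower). They were Bmp4, Id3 (1.38), Id1 (0.82) and Bambi (-0.92), and Bmp2, whose value rests on a group at 0 counts and is not given.

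A list of 41 further pathway genes was counted in the same way. In Hox-/- against wild-type mES cells 6 of 21 tested genes were higher and 1 lower, 4 of the 6 being receptors, beside 12.4% and 10.8% of all genes. In endoderm cultures 13 of 29 were higher and 5 lower, beside 23.1% in each direction. In Activin A gastruloids 13 of 30 were higher and 6 lower at 96 h, beside 22.2% and 16.7%, and 14 of 30 higher and 8 lower at 120 h, beside 24.9% and 25.5%. The counts by role below are read against the same shares. Receptors went 1 way in all 4 comparisons, with 4 higher and none lower of 5 tested in mES cells and of 7 in the other cultures. Of 4 intracellular inhibitors (Smad6, Smad7, Smurf1 and Smurf2), 3 were higher and none lower in endoderm cultures and at both gastruloid times. Of 8 tested secreted antagonists other than Nog and Chrd, 1 was higher and 6 were lower at 120 h. The other comparisons were not as one-sided. At 96 h 3 of 8 were higher and 2 lower, and in endoderm cultures 2 of 7 were higher and 3 lower. In mES cells 3 were tested, with none higher and 1 lower. Median log2 changes of the list were 0.06, 0.16, 0.11 and 0.15 in these 4 comparisons, beside 0, 0, 0.03 and -0.02 over all genes.

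Cer1, which encodes the BMP and Nodal antagonist Cerberus of anterior endoderm, had the largest genotype difference of that list. It was at 136.6 and 157 CPM in wild-type Activin A gastruloids at 96 h and at 1.31 and 1.14 CPM in Hox-/- (log2 change -6.83, SE 0.106, adjusted p 2.37e-44). The values of 120 h were 108 and 107 CPM against 21.9 and 21.0 CPM (log2 change -2.21, adjusted p 4.33e-29). The 2 groups lay far apart at both times. Fst, which encodes the Activin-binding protein follistatin, was lower in Hox-/- at 120 h, at 30.8 and 28.6 CPM against 149 and 141 CPM (log2 change -2.17, adjusted p 1.21e-30). It fell with time by 1.98 in wild type and by 4.69 in Hox-/-. The target gene Msx1 was lower in Hox-/- at 96 h, 9.55 ± 1.77 against 29.2 ± 0.948 CPM (n = 2 each), and the related Msx2 was higher at 120 h, 7.79 ± 0.44 against 1.69 ± 1.02 CPM. Of the 3 further target genes of the list (Id4, Msx1 and Msx2), none was higher and 2 were lower at 96 h. At 120 h 1 was higher and 2 were lower.

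Of 3 genes for proteases of the family that cuts chordin (Bmp1, Tll1 and Tll2), 2 were higher and none lower in Hox-/- gastruloids at each time. Tll2, a tolloid-like protease gene, was at 20.02 ± 0.262 CPM in Hox-/- and 1.64 ± 0.326 CPM in wild-type Activin A gastruloids at 120 h (n = 2 each, log2 change 3.72, SE 0.207, adjusted p 4.12e-21). It was also higher in Chiron than in Activin A gastruloids of wild type at 96 h, 10.1 ± 3.29 against 0.474 ± 0.0421 CPM. Bmp1, which encodes a protease despite its name, was higher in Hox-/- endoderm cultures, 131 ± 1.81 against 62.0 ± 6.64 CPM (n = 3 each, log2 change 1.09, adjusted p 1.27e-08). The ligand gene Gdf6 was higher there too, 3.45 ± 0.311 against 0.894 ± 0.185 CPM, as was the receptor gene Acvrl1, 2.15 ± 0.625 against 0.904 ± 0.302 CPM. Chrdl1, which encodes a chordin-like antagonist, was higher in Hox-/- gastruloids at 96 h, 4.54 ± 0.396 against 2.24 ± 0.281 CPM (n = 2 each).

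In the treatment comparison Fst was higher in Activin A than in Chiron gastruloids by 3.96 at 96 h and 2.2 at 120 h on the log2 scale, and Bmper, a BMP-binding secreted protein, by 2.79 and 1.74. Grem1, which encodes the antagonist gremlin, was at 6.91 ± 0.617 CPM in Activin A and 0.296 ± 0.181 CPM in Chiron gastruloids at 120 h (n = 2 each). The ligand gene Bmp3, whose product antagonises other BMPs, showed the reverse, 5.61 ± 0.602 against 59.1 ± 6.37 CPM, after a rise from 1.52 ± 0.876 CPM at 96 h in Chiron gastruloids. Nbl1, an antagonist gene of the same family as Grem1 and Cer1, rose in Chiron gastruloids from 2.38 ± 0.764 to 10.6 ± 1.43 CPM.

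Over the 10 group means, 13272 genes were ranked by the Pearson correlation of log2(mean CPM + 1) with each BMP gene. Groups of a culture type share medium, and sequencing depth goes with time in gastruloids, so the values are descriptions. Chrd was most like Rgs8 (0.967), the notochord gene Noto (0.954) and Pkd1l1 (0.932). Nog was most like Runx1 (0.99), Ripor1 (0.982) and Bmp2 (0.975), and Bmp2 like Fhl2 and Nog (0.975 each) and Aebp1 (0.972). Bmp4 was most like Klhl6 (0.967), Gsap (0.965) and Acta1 (0.961). Bmp7 was most like Tmem198b (0.98), Bmp5 like Cdh11 (0.977), Bambi like Npc1 (0.974), Id1 like Plekhh3 (0.97) and Id3 like Selenok (0.984). For Id2 the closest was a gene with only a predicted name, followed by Slc37a4 (0.969) and Ppp1r9a (0.967). Nog and Bmp2, an antagonist and a ligand, were the 1 pair of the 10 genes found among each other's 3 closest.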

How the data were processed

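The 22 libraries hold poly(A) RNA prepared, per the labels, with TruSeq Stranded mRNA reagents. The authors deposited read counts and FPKM values per gene in 4 tables, on build mm10, and the submitters' processing notes name cutadapt 1.16, STAR and Cufflinks 2.2.1. The annotation release and the use of strand in counting are not given in the sources used here. Counts were divided by library totals (9.11 to 28.8 M) to give CPM. Genes were tested with edgeR 4.0.16 (R 4.3.3): filterByExpr, TMM scaling, a coefficient per group, the quasi-likelihood test and Benjamini-Hochberg adjustment over all genes tested, with calls at an adjusted p under 0.05. Counts of mES cells and endoderm cultures were fitted together for differentiation. FPKM values, which the authors deposited, served for levels between genes and for limma 3.58.1. SD is over libraries. Groups at or under 3 counts per library count as at the floor. Counting intervals cover counting error only. Libraries were grouped by their labels, and every sample column was used. Samples were not paired by replicate number, because the labels give no shared day or batch. Correlations of deviations between same-numbered libraries ran from -0.252 to 0.234 and cannot settle whether any were shared. Alternatives were RLE, total counts, no filter, 10 counts in every library, DESeq2 1.42.0, limma with pseudocounts of 1 and 0.1, a replicate block, the compared groups alone and each library left out. Genes outside the 10 were named where the change was at least 2-fold and past the test, with no overlap between groups, at most 4 per comparison by p, and likeness used genes that reached 5 CPM. The members, lists and rules were chosen with earlier results of these data known. The fits were tested on simulated data.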

Additional observations from a re-analysis of the deposited data

Results flagged for a closer look

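For 6 of the 10 genes the change from 96 h to 120 h in Activin A gastruloids differed between Hox-/- and wild type in a direct test (edgeR). On the log2 scale the difference of the time effects was -2.93 for Id2, -1.7 for Id1, -0.95 for Bmp4, -0.66 for Id3, -0.23 for Bmp7 and 1.46 for Nog. The Bmp7 value was close to the threshold (adjusted p 0.048) and missed it in each of the 8 fits without a library.

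For 8 genes the time effect differed between Activin A and Chiron gastruloids of wild type. The difference was 2.15 for Id1, 1.62 for Id2, 1.59 for Bmp2 and 0.76 for Bambi, and it was -1.57 for Bmp5, -0.74 for Chrd, -0.72 for Bmp4 and -0.46 for Id3. The Bmp4 value missed the threshold with DESeq2 (adjusted p 0.0696) and in 5 fits without a library, with values from -0.84 to -0.58.

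For 4 genes the genotype difference itself differed between endoderm cultures and mES cells, by 2.09 for Bmp4, 1.38 for Id3, 0.82 for Id1 and -0.92 for Bambi. The Id1 value missed the threshold in 5 fits without a library. The wild-type Activin A libraries enter both gastruloid tests, so these are not independent.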

How the results depend on the processing

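The calls for the 10 genes, without 6 that rest on an mES group at or under 3 counts, were 98 and were recomputed in 1295 alternative runs: 1216 kept direction and call, 79 kept direction but missed the threshold, none changed sign, and 82 calls held in all of their runs. Runs in which a gene was filtered out or had no adjusted p were not counted. The same holds for the values below that did not pass. In mES cells the count of called genes was 4, and 2 with DESeq2, 1 with limma at either pseudocount, and 3 to 4 without a library. There 3168 genes were called in all, 1098 with DESeq2 and 387 and 372 with limma, and 1477 and 1690 without wild-type replicate 1 or 2. At 96 h 6546 genes were called between genotypes, 3647 with DESeq2 and 3048 and 2787 with limma, of which 57%, 56.7%, 32.9% and 30.6% were higher. Activin A against Chiron at 96 h gave 10655 calls, and 7040 and 6670 with limma. Genotype by time gave 6544, and 4264 with limma at 0.1, with 48% and 58.1% higher, and 59.1% higher with no filter.

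With the replicate block the count of called genes went from 4 to 5 for time in Hox-/- (Bmp5 0.64, adjusted p 0.0304) and from 6 to 5 for genotype by time (Bmp7 -0.23, adjusted p 0.0507), and no other call on the 10 genes changed. The labels give same-numbered replicates nothing shared beyond the number.

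Of 428 runs of 31 values that did not pass, 21 passed and 46 changed sign. Those that passed include Id3 in endoderm without Hox-/- replicate 2 (0.2, adjusted p 0.0125), Id1 there without wild-type replicate 3 (0.21, adjusted p 0.0393) and Nog over time in Chiron in 5 runs (0.29 to 0.99). Total counts gave 0.05 for Chrd over time in wild type and 0.04 for Bmp2 in Chiron. For genotype by time Bmp2 was -0.06 with total counts, 0.00 with DESeq2, -0.01 with the block and -0.38 and -0.12 with limma. Bmp5 was -0.03 and -0.08 with limma, and Chrd 0.01 with no filter and 0.15 and 0.13 with limma. Bmp7 for genotype by differentiation was -0.01 with RLE and DESeq2, -0.03 with total counts, 0.00 with no filter and -0.02 with 10 counts. Without a library, Chrd in mES cells ran from -0.19 to 0.23, Id1 in endoderm from -0.04 to 0.21, Bmp5 at 120 h from -1.3 to 0.19 and Id1 in Activin A against Chiron at 96 h from -0.15 to 0.07. Over time Chrd ran from -0.13 to 0.08 in wild type and from -0.3 to 0.24 in Hox-/-, where Id1 ran from -0.02 to 0.35, Id2 from -0.05 to 0.15 and Bmp5 from -0.33 to 1.17. Bmp2 in Chiron ran from -0.29 to 0.15. For genotype by time Bmp2 ran from -0.31 to 0.24, Bmp5 from -0.89 to 0.61 and Chrd from -0.27 to 0.27, and Bmp7 for genotype by differentiation from -0.17 to 0.15. The cause was not tested. Depth limits Bmp2, Bmp5 and Nog in mES cells, where 3 counts are at most 0.252 CPM.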
